A study of Mus musculus with 8 samples.

Results

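The miRNAs miR-183-5p, miR-96-5p and miR-182-5p were followed in mouse skin on 8 arrays of 1 colour, as the 3 miRNAs of those names among the 1881 on the array. Their hairpins are neighbours on mouse chromosome 6 and are named together as the miR-183 cluster. All mice were male Ncstn flx/flx; Krt14 CreER+/- animals. Their Ncstn alleles, which encode the γ-secretase subunit nicastrin, are floxed, and Cre, active only in the presence of tamoxifen, is driven by the promoter of Krt14, a basal keratinocyte keratin. γ-Secretase is the protease that releases the active part of Notch receptors. The 4 NcstnΔKC samples come from mice gavaged with tamoxifen (20 mg per kg per day on 5 days starting at the age of 8 weeks, later repeated at intervals of 10 days). The 4 normal samples come from mice of this same genotype given corn oil, so the effect of tamoxifen and that of Ncstn loss cannot be told apart. Whole skin, called lesions in the labels with no body site, was excised at 16 weeks. Whether each sample is a mouse of its own is not said in the labels, and the p-values then cover only the spread from sample to sample, some of which may be technical. The arrays do not measure Ncstn mRNA, and the deletion was not checked here.

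The miR-183 cluster is known from sensory organs. Its miRNAs are abundant in the hair cells of the inner ear, in photoreceptors and in sensory neurons of the dorsal root ganglia, and changes in the seed of miR-96 cause hearing loss in mice and people. A miRNA lowers the output of mRNAs whose sites pair with its seed, bases 2 to 8 of the mature strand. The cluster is also found in epithelia, where it is often named beside miR-200, miR-203 and miR-205. In RefSeq (GRCm38.p6) the hairpin genes Mir182, Mir96 and Mir183 all lie within the span of the long noncoding RNA gene Mirc35hg, between the protein-coding neighbours Nrf1 and Ube2h.

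The mature strands are shown because the members are near copies at their 5′ ends, which bears on their seeds. All 3 members matched RefSeq (GRCm38.p6), as did 1608 of the 1881 names on the array. The seed is in capitals, written 5′ to 3′.
mmu-miR-183-5p: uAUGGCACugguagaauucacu
mmu-miR-96-5p: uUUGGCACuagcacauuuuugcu
mmu-miR-182-5p: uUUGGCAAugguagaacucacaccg
mmu-miR-1271-5p: cUUGGCACcugguaagcacuca

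Counted from base 1 at the 5′ end, miR-96-5p differs from miR-183-5p within the seed by A2U, and miR-182-5p differs from miR-96-5p by C8A. Between miR-183-5p and miR-182-5p both substitutions, A2U and C8A, are present. The 3 members therefore have 3 different seeds. Among 1679 mature mouse miRNAs in the table, miR-1271-5p was the 1 that shared a member's whole seed, that of miR-96-5p, and no level of it was analysed here. Bases 2 to 7 (UUGGCA) are common to miR-96-5p, miR-182-5p and miR-1271-5p, while those of miR-183-5p (AUGGCA) occur in 0 other mature miRNAs of the table. Beyond the seed, miR-183-5p and miR-182-5p share the run ugguagaa at bases 9 to 16 of each strand.

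Each member was read by 2 probes that are complementary to a stretch ending at its last 3′ base and differ in length by 1 base. The probes are shown because the longer one of each pair gave most of the signal; its extra base is in capitals.
miR-183-5p, 19 bases: agtgaattctaccagtgcC
miR-96-5p, 22 bases: agcaaaaatgtgctagtgccaA
miR-182-5p, 16 bases: cggtgtgagttctacC

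The probe for miR-183-5p paired with bases 4 to 22 of its target, that for miR-96-5p with bases 2 to 23, and that for miR-182-5p with bases 10 to 25. The longest run that these probes could pair with in another member was 7 or 8 bases. In any other mature miRNA of the table it was 8 or 9 bases. In the mm9 positions given in the deposited files, the target of the miR-182-5p probe lies at chr6:30115934-30115948, that of miR-96-5p at chr6:30119471-30119491 and that of miR-183-5p at chr6:30119677-30119694, all on the minus strand. In the order given, these spans hold 15, 21 and 18 bases, fewer than the probes pair with. Between the spans as given, the gap from miR-96-5p to miR-183-5p is 185 bases, and that from miR-182-5p to miR-96-5p is 3522 bases. The gaps between the paired bases themselves can differ from these.

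All 8 arrays lie on 1 slide, the normal ones in row 2 of the slide and the NcstnΔKC ones in row 1, so row and group cannot be told apart. Same-numbered arrays of both groups lie in the same column. Between 198 and 273 miRNAs were detected per array, and the 222 that every array of 1 group or both detected were tested. Levels are given as log2 of the intensity relative to a reference level of the array, the 75th percentile of the 301 probes detected on every array; 0 is that percentile, and a difference of 1 is 2-fold. That percentile was 1259 ± 44.6 intensity units on normal and 1053 ± 98.3 on NcstnΔKC arrays (SD, n = 4 each; p = 0.0286 by exact permutation, two-sided, the smallest that 8 arrays can give). Scaling therefore raised NcstnΔKC values by 0.26 on the log2 scale. Negative control spots, which match no mouse miRNA, read 12.6 to 17.2 intensity units per array.

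NcstnΔKC skin was compared with normal skin to see whether the 3 members differ in abundance, and whether they do so together. In NcstnΔKC skin miR-183-5p was 1.5-fold lower, miR-96-5p and miR-182-5p did not pass the test, and the ratio of each pair of members differed between the groups. The call rate over all tested miRNAs was high: 95 of 222 (42.8%) passed an adjusted p of 0.05 in limma, 33 of them higher (14.9%) and 62 lower (27.9%). The 1 of 3 members that passed is read against those shares and does not stand out from them. The split between higher and lower depended on the scaling, with 34.7% of calls higher here, 19.2% without scaling, 16.5% with spike-in scaling, 52.2% with quantile normalization, 53.9% with cyclic loess, 56.3% with normexp background correction, 50% in the series matrix and 100% of 12 calls with the percentile taken over all probes.

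For miR-183-5p the summed intensities of its probes were 204, 151, 222 and 248 units on normal arrays 1 to 4. On NcstnΔKC arrays 1 to 4 they were 129, 113, 108 and 104 units. Every normal array was above every NcstnΔKC array before any scaling. After scaling, the log2 levels were -2.64, -3.01, -2.47 and -2.41 in normal skin and -3.17, -3.02, -3.30 and -3.37 in NcstnΔKC skin. Again the groups were apart, as were those of 36.9% of the tested miRNAs, but normal 2 and NcstnΔKC 2 lay almost level. The log2 difference was -0.58 ± 0.17 (SE, 95% confidence interval -0.97 to -0.19, limma with Benjamini-Hochberg adjustment over 222 miRNAs, adjusted p = 0.0266). Of the 222 tested miRNAs 68 (30.6%) had a more negative difference, and relative to the median of all tested miRNAs (-0.23) that of miR-183-5p was -0.35. In whole skin, fewer cells that make a miRNA and less of it per cell cannot be told apart.

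The call for miR-183-5p was not stable. Its adjusted p was 0.0687 without normal 3, 0.0695 without normal 4, 0.0813 without NcstnΔKC 3 and 0.0662 without NcstnΔKC 4, with the difference between -0.71 and -0.51 over all 8 arrays left out in turn. The value was -0.33 (adjusted p = 0.371) with quantile normalization, -0.31 (0.313) with cyclic loess, -0.13 (0.331) with normexp background correction, 0.29 (0.837) with the percentile over all probes and 0.26 (0.684) with the scanner software's totals per miRNA. With the percentile over all probes the SE was 0.69 and the median of all tested miRNAs was 0.64. Relative to that median miR-183-5p stayed at -0.35.

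For miR-96-5p the summed intensities were 423, 349, 408 and 500 units on normal arrays 1 to 4. They were 350, 298, 309 and 280 units on NcstnΔKC arrays 1 to 4. Normal 2 and NcstnΔKC 1 were level, and the other normal arrays were above all NcstnΔKC arrays. The scaled log2 levels were -1.59, -1.80, -1.59 and -1.39 in normal skin and -1.73, -1.63, -1.78 and -1.94 in NcstnΔKC skin. These groups overlapped. The log2 difference was -0.17 ± 0.14 (SE, 95% confidence interval -0.50 to 0.15, limma adjusted p = 0.344). It became 0.70 when all probes set the percentile, where the median of all tested miRNAs was 0.64. Without any scaling it passed the test at -0.44 (limma adjusted p = 0.0421). The difference of -0.17 was close to the median of all tested miRNAs, from which it differed by 0.059, and 120 of 222 (54.1%) had a more negative difference.

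For miR-182-5p the summed intensities were 125, 112, 127 and 146 units on normal arrays 1 to 4. They were 120, 123, 116 and 119 units on NcstnΔKC arrays 1 to 4, all within the range of the normal arrays. The scaled log2 levels were -3.35, -3.44, -3.27 and -3.17 in normal skin and -3.27, -2.90, -3.19 and -3.17 in NcstnΔKC skin. These groups overlapped too, and NcstnΔKC 2 was the highest array. The log2 difference was 0.17 ± 0.14 (SE, 95% confidence interval -0.14 to 0.49, limma adjusted p = 0.338), and it turned to -0.089 without scaling and to -0.13 with spike-in scaling. Relative to the median of all tested miRNAs it was 0.41, and 152 of 222 (68.5%) had a more negative difference.

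**Figure D1:**
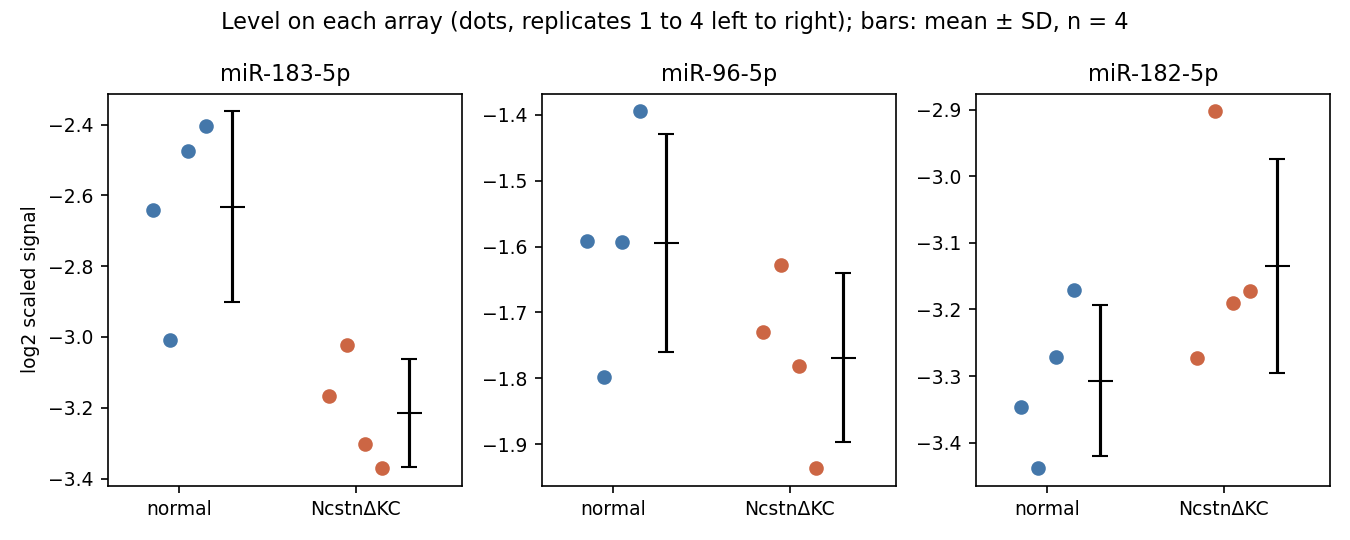
Scaled log2 level of each member (y axis, log2 of intensity over the array's 75th percentile) on the 4 normal (blue) and 4 NcstnΔKC (orange) arrays, with the mean ± SD of each group; the y axes differ. The groups do not overlap for miR-183-5p (-3.01 or above against -3.02 or below) and overlap for the other members; with the percentile over all probes the mean difference of miR-183-5p is 0.29 and that of miR-96-5p 0.70, and without scaling that of miR-182-5p is -0.089.

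The ratio of a pair of members on the same array cancels any factor that scales the whole array, and its change between groups shows by how much the members moved apart. The ratio itself also holds how well each probe binds and is no ratio of molecules. For miR-183-5p against miR-182-5p the log2 ratio was 0.71, 0.43, 0.80 and 0.76 on normal arrays 1 to 4. It was 0.11, -0.12, -0.11 and -0.20 on NcstnΔKC arrays 1 to 4. All normal arrays were above all NcstnΔKC arrays, with a wide gap. The mean went from 0.67 ± 0.17 to -0.081 ± 0.13 (SD, n = 4 each), a difference of -0.76 or 1.69-fold (exact two-sided permutation over 70 labelings, p = 0.0286, 0.0286 after adjustment over the 3 pairs, the smallest possible).

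For miR-183-5p against miR-96-5p the log2 ratio was -1.05, -1.21, -0.88 and -1.01 on normal arrays 1 to 4, and -1.44, -1.39, -1.52 and -1.43 on NcstnΔKC arrays 1 to 4. Again no NcstnΔKC array reached the normal ones. The mean went from -1.04 ± 0.14 to -1.45 ± 0.053 (SD, n = 4 each), a difference of -0.41 or 1.33-fold (exact permutation p = 0.0286, adjusted p = 0.0286). The adjusted p was 0.0571 without NcstnΔKC 3.

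For miR-96-5p against miR-182-5p the log2 ratio was 1.76, 1.64, 1.68 and 1.78 on normal arrays 1 to 4, and 1.54, 1.27, 1.41 and 1.24 on NcstnΔKC arrays 1 to 4. The groups were apart here as well, although NcstnΔKC 1 came near them. The mean went from 1.71 ± 0.064 to 1.37 ± 0.14 (SD, n = 4 each), a difference of -0.35 or 1.27-fold (exact permutation p = 0.0286, adjusted p = 0.0286). Without normal 1, 2, 3 or 4 the adjusted p was 0.0571, with the difference between -0.37 and -0.33. Against miR-182-5p, the other members of the cluster were thus both lower in NcstnΔKC skin, miR-183-5p by more. The groups thus did not overlap in 3 of 3 ratios. Over all 24531 pairs of tested miRNAs they did not overlap in 8572 (34.9%), so such a ratio is common on these arrays and nothing particular to the cluster is read from it.

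**Figure D2:**
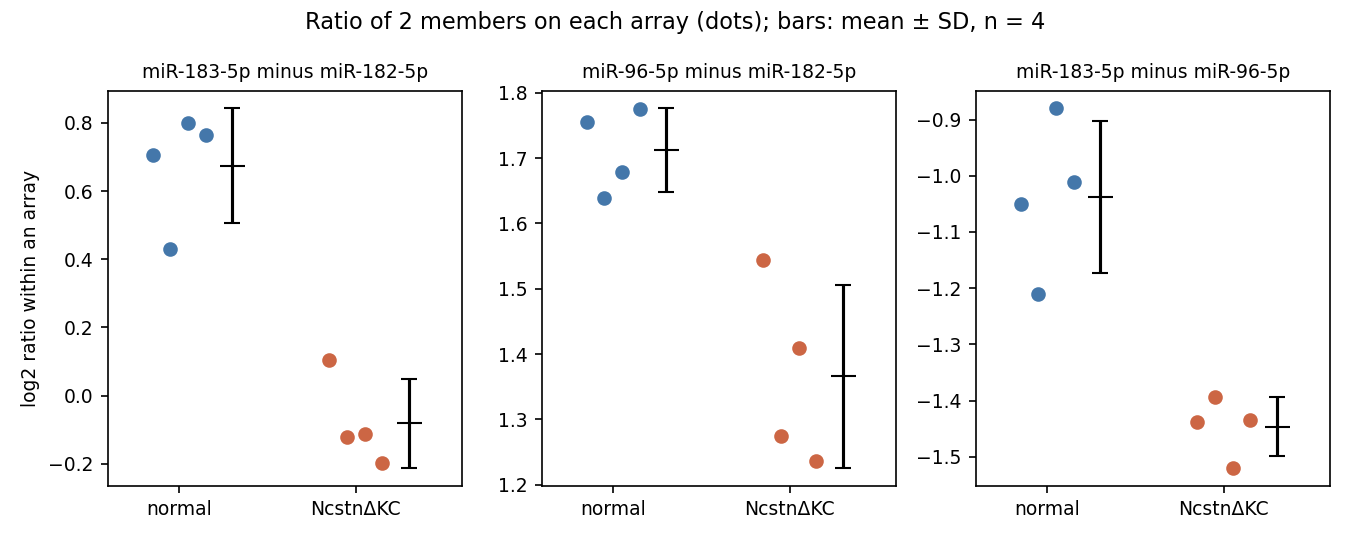
Log2 ratio of each pair of members within an array (y axis, log2) for the 4 normal (blue) and 4 NcstnΔKC (orange) arrays, with the mean ± SD of each group; the y axes differ. No pair has overlapping groups, and the difference is largest for miR-183-5p against miR-182-5p (-0.76), followed by miR-183-5p against miR-96-5p (-0.41) and miR-96-5p against miR-182-5p (-0.35).

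The single probes show what these sums rest on. The 19-base probe of miR-183-5p was detected on all 8 arrays and read 148 ± 27.7 intensity units in normal and 82.2 ± 7.45 in NcstnΔKC skin (SD, n = 4 each), a difference in scaled log2 level of -0.57. The 18-base probe read 58.4 ± 13.3 and 31.3 ± 3.90 units, and was detected on 3 normal arrays (all but normal 2) and 0 NcstnΔKC arrays. Both probes were lower in NcstnΔKC skin, but the shorter one was not well above background there. Over the 13 to 15 spots of the 19-base probe on an array the coefficient of variation was 5.30% to 9.83%.

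Both probes of miR-96-5p were detected on all 8 arrays. The 22-base probe read 253 ± 35.7 units in normal and 185 ± 16.0 in NcstnΔKC skin, and the 21-base probe 168 ± 26.3 and 124 ± 14.4 (SD, n = 4 each). Their differences in scaled log2 level were -0.18 and -0.17, so the probes gave the same direction and size. The 16-base probe of miR-182-5p was detected on all 8 arrays at 121 ± 12 and 113 ± 3.37 units, a scaled log2 difference of 0.16. Its 15-base probe was detected on 0 of 8 arrays, at 6.26 ± 2.27 and 7.03 ± 2.90 units, below the reading of the negative control spots, so miR-182-5p rests on 1 probe.

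**Figure D3:**
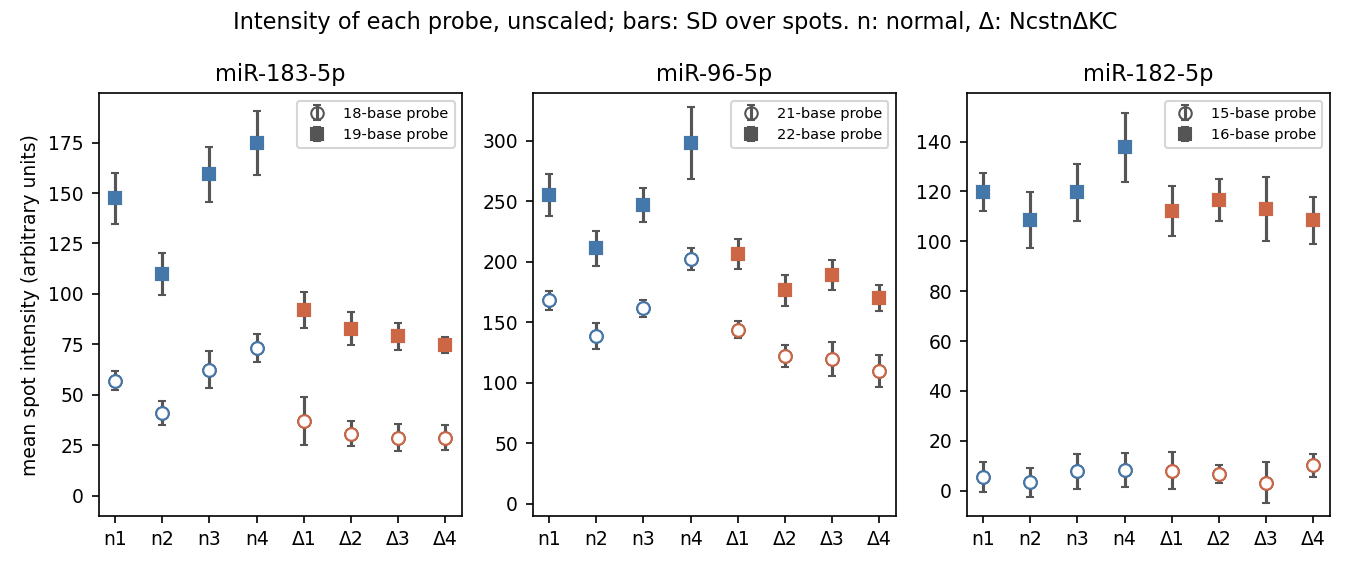
Mean unscaled intensity of each probe (y axis, arbitrary units) on normal arrays 1 to 4 (n1 to n4, blue) and NcstnΔKC arrays 1 to 4 (Δ1 to Δ4, orange); bars are the SD over the spots of a probe on 1 array, and filled squares are the longer probe of each member. The 19-base probe of miR-183-5p reads 110 or more units on every normal array and 92.2 or fewer on every NcstnΔKC array, and the 15-base probe of miR-182-5p stays under 10.3 units throughout.

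The differences also depended on the treatment of background. With the mean of the negative control spots taken off each probe, an alternative chosen after the data were seen, the log2 difference was -0.79 (limma adjusted p = 0.0190) for miR-183-5p, -0.21 (0.298) for miR-96-5p and 0.15 (0.439) for miR-182-5p. With normexp, which adds an offset of 50 units, that of miR-183-5p was -0.13. Its ratio to miR-182-5p still differed by -0.35, but its ratio to miR-96-5p by only -0.094. The other strands of the 3 hairpins, miR-183-3p, miR-96-3p and miR-182-3p, were detected on 0 of 8 arrays and none was tested.

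The authors' processed values in the series matrix are log2 values of the same arrays, with normalization and centring not given in the sources used here. There miR-183-5p read 5.64, 4.93, 5.98 and 6.12 on normal arrays 1 to 4 and 5.28, 5.31, 5.08 and 4.82 on NcstnΔKC arrays 1 to 4. The groups overlapped in these values through normal 2, which lay below 3 of the 4 NcstnΔKC arrays. The difference was -0.55 ± 0.27 (SE, limma adjusted p = 0.159), close in size to the -0.58 above and with a larger error. In the same values miR-96-5p differed by -0.10 (adjusted p = 0.689) and miR-182-5p by 0.22 (adjusted p = 0.276), the same directions as after percentile scaling. The ratio of miR-183-5p to miR-182-5p differed by -0.76 there (exact permutation, adjusted p = 0.0429).

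The scanner software's own total per miRNA gave other values. In these files it is not always the sum of the totals of the miRNA's probes. For miR-183-5p it was within 0.01% of that sum on 6 arrays but was 3.55 times it on NcstnΔKC 3 and 4.08 times it on NcstnΔKC 4. For miR-182-5p it was 1.73 to 3.0 times the sum on all arrays, and for miR-96-5p it was within 0.01% of the sum on all 8. Over all readings that the software itself flagged as detected, a rule other than the one used here, 631 of 2217 (28.5%) differed by more than 10%. With the software's probe totals summed instead, the difference of miR-183-5p was -0.59 (limma adjusted p = 0.0254).

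**Figure D4:**
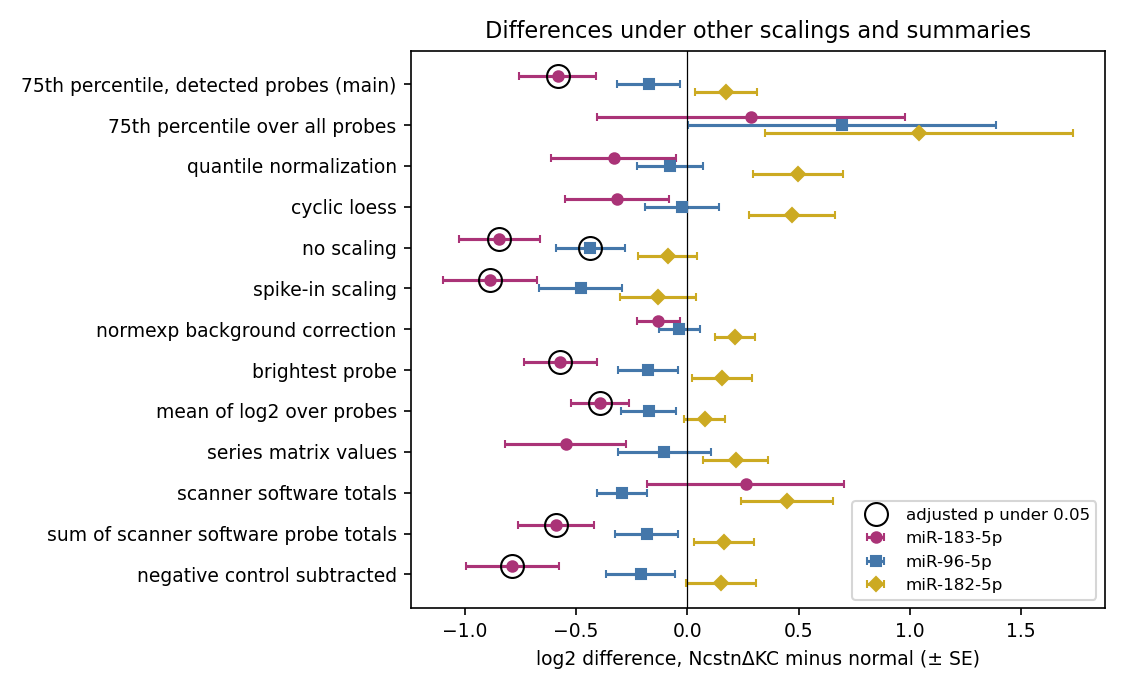
Log2 difference, NcstnΔKC minus normal (x axis, ± SE), of the 3 members under each scaling, background correction and summary tried (y axis); a ring marks an adjusted p under 0.05 in limma. The miR-183-5p difference lies between -0.89 and -0.13 except with the percentile over all probes (0.29) and with the scanner software's totals (0.26), and it is below that of miR-182-5p in every setting shown.

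Across the 8 arrays the levels of miR-183-5p and miR-96-5p went together (Pearson r = 0.885, exact permutation p = 0.00169, adjusted over the 3 pairs 0.00506; Spearman rho = 0.833, p = 0.0154, adjusted 0.0461). Without normal 3 and normal 4, the arrays farthest from the median of miR-183-5p, r was 0.811. Those of miR-183-5p and miR-182-5p gave r = -0.161 (exact permutation p = 0.727, adjusted 0.727; rho = -0.095, p = 0.840, adjusted 0.840), and r = -0.286 without the same arrays. Those of miR-96-5p and miR-182-5p gave r = 0.152 (exact permutation p = 0.722, adjusted 0.727; rho = 0.167, p = 0.703, adjusted 0.840), and r = 0.291 without normal 4 and NcstnΔKC 4. The arrays of a group share a treatment, so these values mix differences between and within groups. The permutations ignored group as well, so their p-values do not measure how far members go together apart from the group difference.

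Within groups the picture was different. As deviations from the group means, given as a description, the correlation over the 8 arrays was 0.92 for miR-183-5p with miR-96-5p, 0.74 for miR-183-5p with miR-182-5p and 0.71 for miR-96-5p with miR-182-5p. In the series matrix values these were 0.95, 0.95 and 0.93. Members on 1 array share its RNA, its hybridisation and its scaling, and all 3 pairs were positive in both sets of values. Among the 221 other tested miRNAs, miR-96-5p ranked 22nd in likeness to miR-183-5p over the 8 arrays and 6th by deviations, and miR-182-5p ranked 144th and 29th.

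By Pearson correlation over the 8 arrays, miR-183-5p was most like miR-365-3p (0.993), let-7c-5p (0.961), miR-193b-3p (0.957) and the epithelial miR-200b-3p (0.955). Those most like miR-96-5p were miR-26a-5p (0.938), miR-23a-3p (0.935), miR-26b-5p (0.926) and miR-183-5p (0.885). The 4 most like miR-182-5p were let-7e-5p (0.940), miR-27b-3p (0.909), the epithelial miR-205-5p (0.885) and miR-125a-5p (0.853). By deviations from the group means, miR-183-5p was nearest to miR-365-3p (0.985) and miR-24-3p (0.952), miR-96-5p to miR-24-3p (0.929) and miR-26a-5p (0.925), and miR-182-5p to the epithelial miR-429-3p (0.948) and miR-200b-3p (0.921). The epithelial miR-200a-3p was the next nearest to miR-96-5p (0.923). Each of these values is among the highest of 221, over 8 arrays.

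The other epithelial miRNAs differed among themselves. Of 14 strands of miR-200a, miR-200b, miR-200c, miR-141, miR-429, miR-203 and miR-205, which are abundant in epithelia, 8 were tested, and 5 of these were lower in NcstnΔKC skin (27.9% of all tested miRNAs were), 0 higher and 3 did not pass. The other 6 were detected on no array. Without NcstnΔKC 3, or with the replicate block, 3 of the 8 were lower. Lower were miR-429-3p (log2 difference -0.81, limma adjusted p = 0.00466), miR-200a-3p (-0.74, 0.0120), miR-203-3p (-0.68, 0.0139), which restrains proliferation of keratinocytes as they leave the basal layer, miR-203-5p (-0.83, 0.0139), and miR-200b-3p (-0.58, 0.0191). Both strands of the miR-203 hairpin are among these 5, so they are not 5 separate genes and no enrichment is read from the count. Not past the test were miR-205-5p (0.47, 0.0518), miR-141-3p (0.30, 0.138) and miR-200c-3p (0.12, 0.618). The median of the 8 was -0.63 against -0.23 over all tested miRNAs. It was negative under every scaling tried but the percentile over all probes, where it was 0.24 with 0 of 8 called. Called higher were 1 of 8 with quantile normalization, cyclic loess, normexp, the mean of log2 over probes and a trended, robust limma fit. The count was also 1 of 8 without NcstnΔKC 1, and 2 of 8 in the series matrix and with array weights.

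miR-183-5p (-0.58) thus lay with the members of this list that fell, and miR-182-5p (0.17) between miR-200c-3p and miR-141-3p. The summed level of all 14 listed epithelial strands, tested or not, was taken as log2 of the summed scaled signal. It ranged from 4.51 to 4.79 on normal and from 4.52 to 4.93 on NcstnΔKC arrays, so these ranges overlapped. The sum rests mostly on the brightest strands, miR-205-5p and miR-203-3p, which moved in opposite directions. Their mean log2 levels were 3.53 and 2.89 in normal skin, and 4.00 and 2.21 in NcstnΔKC skin.

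**Figure D5:**
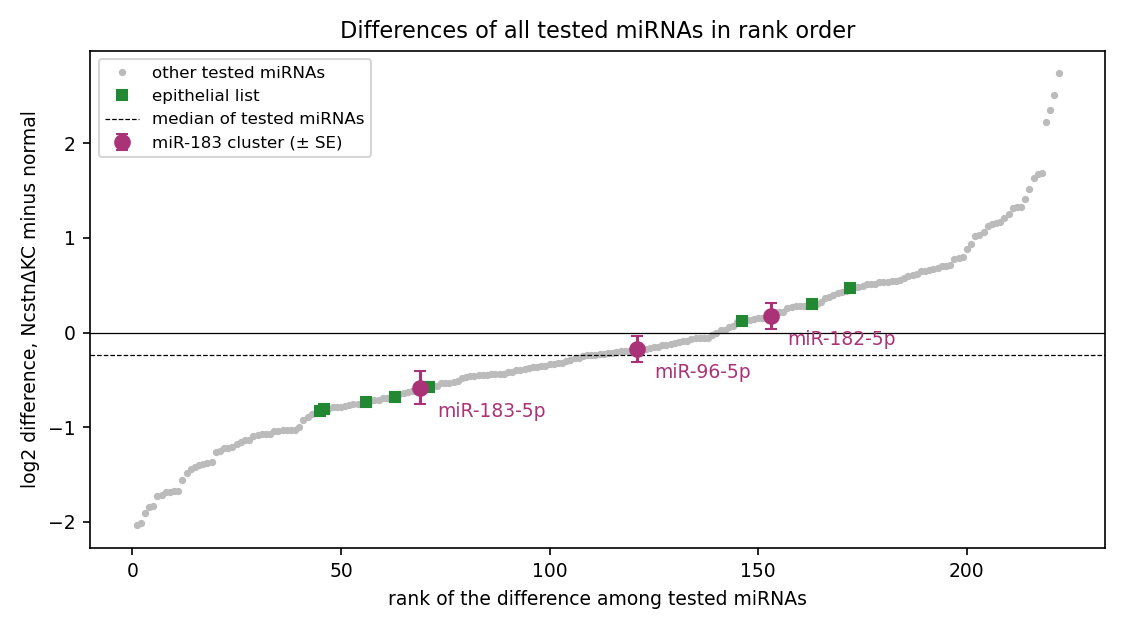
Log2 difference, NcstnΔKC minus normal (y axis), of the 222 tested miRNAs in rank order (x axis), with the 3 members (purple, ± SE), the 8 tested epithelial miRNAs (green) and the median of -0.23 (dashed line). miR-183-5p lies at rank 69 among the epithelial miRNAs that are lower, and miR-96-5p and miR-182-5p at ranks 121 and 153; these values are after percentile scaling over detected probes, and without scaling those of the 3 members lie 0.26 lower.

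Lists of markers of other skin cells are read against the 42.8% of all tested miRNAs that were called. Of 14 neural and Schwann cell strands, cells in which the cluster could also be made, 11 were detected on no array, miR-9-5p and miR-124-3p among them, and 1 of the 3 tested was called. This was miR-128-3p, lower by limma (log2 difference -0.90, adjusted p = 0.0236) but detected on only 1 of 4 NcstnΔKC arrays. Its adjusted p was 0.0573 without normal 4, 0.0661 without NcstnΔKC 2 and 0.0682 without NcstnΔKC 3, and its call was kept in 10 of 19 other settings, not in the series matrix or after quantile normalization. miR-218-5p (-0.11, adjusted p = 0.572) and miR-338-3p (-0.15, 0.685) did not pass. The summed level of all 14 strands, those detected on no array included, ranged from -1.64 to -1.14 on normal and from -1.91 to -1.22 on NcstnΔKC arrays.

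Of 7 striated muscle miRNAs 5 were tested and 1, miR-1a-3p, was called lower (-1.83, limma adjusted p = 0.0451). That call was kept in 7 of 20 other settings and in 2 of 8 with an array left out (without normal 1 and without NcstnΔKC 1). The number called lower was 4 without scaling and 0 with quantile normalization. The median of the 5 was -1.73. The summed level of all 7, tested or not, ranged from 4.14 to 6.40 on normal and from 2.69 to 5.27 on NcstnΔKC arrays.

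Of 6 blood cell miRNAs 5 were tested, with a median of 0.89, and 2 were called in opposite directions. miR-142a-3p, abundant in white blood cells, was higher (1.52, limma adjusted p = 0.00792), a call kept in 19 of 20 other settings and with any 1 of the 8 arrays left out. miR-486a-5p was called lower (-1.91, adjusted p = 0.0229) with detection on 1 of 4 NcstnΔKC arrays. The latter call was kept in 9 of 19 other settings, and its adjusted p was 0.0534 without normal 3, 0.0581 without normal 4, 0.0648 without NcstnΔKC 2, 0.0668 without NcstnΔKC 3 and 0.0538 without NcstnΔKC 4. The summed level of all 6, the untested miR-142a-5p included, ranged from 1.55 to 1.79 on normal and from 2.04 to 3.20 on NcstnΔKC arrays.

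Of 3 pigment cell strands 2 were tested and 1, miR-204-5p, was called lower (limma adjusted p = 0.00182). It was detected on 1 of 4 NcstnΔKC arrays, so its log2 difference depended on the floor, with -1.69 at the floor used and -0.88 at 2 times it. The other tested strand, miR-211-3p, differed in the opposite direction and did not pass (0.80, limma adjusted p = 0.338). Its levels in normal skin varied widely (SD 1.39, n = 4). The untested miR-211-5p, of the same hairpin, was detected on 1 normal and 0 NcstnΔKC arrays. Summed over all 3 strands, tested or not, the level was -1.24 to 0.96 on normal and -0.38 to 0.74 on NcstnΔKC arrays. This sum rests mostly on miR-211-3p, with a mean log2 level of -0.68 in normal skin against -3.09 for miR-204-5p. The part of these cells in the values of the miR-183 cluster was not tested.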

How the data were processed

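Per the labels' protocols, RNA from skin was extracted with a mirVana kit and labelled with Cy3. Per the file headers, Agilent Feature Extraction 10.7.1.1 gave the deposited intensity of each spot after background subtraction, with no normalization between arrays; positions refer to mm9. The authors' series matrix holds log2 values; no source used here gives their normalization.

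Control and outlier spots were left out. A probe was detected where 50% or more of its spots were well above background. Spots were averaged, probe means scaled to the array's 75th percentile of the 301 probes detected on all arrays, summed per miRNA, set to a floor of 0.0318 where lower (0 values of the members) and put on the log2 scale. Groups were compared with limma 3.58.1 (lmFit on group, eBayes) in R 4.3.3 over 222 miRNAs, with Benjamini-Hochberg adjustment and a threshold of 0.05. Scripts were tested on simulated data. Ratios of members were compared by exact two-sided permutation.

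The members and lists were chosen with earlier results of these data known. Named were the members, miRNAs of the same seed, up to 4 tested miRNAs of each list with the smallest p, and the 4 most like each member; the other tested epithelial miRNAs were named after their values were seen. Between arrays of a group the SD of the log2 differences over miRNAs was 0.247 to 0.927.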

Additional observations from a re-analysis of the deposited data

How the results depend on the processing

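The log2 difference of miR-183-5p (-0.58) turned to 0.29 ± 0.69 (SE) when all probes set the percentile and to 0.26 with the scanner software's totals. With the percentile over all probes the median of all tested miRNAs moved as well, from -0.23 to 0.64. Relative to that median miR-183-5p stayed at -0.35. The difference of miR-183-5p lost its call with quantile normalization (-0.33), cyclic loess (-0.31), normexp (-0.13), the series matrix (-0.55), no filter on dim miRNAs (-0.58, limma adjusted p = 0.230) and the replicate block (-0.58, adjusted p = 0.0861). With 1 array left out it ranged from -0.71 to -0.51. That of miR-96-5p was 0.70 when all probes set the percentile, passed at -0.44 without scaling, and ranged from -0.24 to -0.11 with 1 array left out. That of miR-182-5p turned to -0.089 without scaling and -0.13 with spike-in scaling, and ranged from 0.13 to 0.23. Of the 3 members 1 was called, against 2 without scaling and 0 with the percentile over all probes, quantile normalization, cyclic loess, normexp, software totals, the series matrix, no filter and the replicate block; with 1 array left out 0 to 1 were called. Of all tested miRNAs 95 were called, against 12 with the percentile over all probes, 19 with no filter, 61 when detection on all 8 arrays was asked for and 149 with array weights; with 1 array left out the count ran from 58 (without NcstnΔKC 3) to 97.

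The ratio of miR-183-5p to miR-182-5p (-0.76) was -0.18 (exact permutation, adjusted p = 0.800) with software totals and -0.84 to -0.71 with 1 array left out. That of miR-183-5p to miR-96-5p (-0.41) turned to 0.56 (adjusted p = 0.643) with software totals and ranged from -0.47 to -0.36. That of miR-96-5p to miR-182-5p (-0.35) did not pass with software totals (-0.74), the mean of log2 over probes (-0.25) or the series matrix (-0.32), and ranged from -0.41 to -0.30. The causes of these changes in the ratios were not tested, except that the software's totals depart from the sums of their probe totals. Apart from these, the ratios kept their direction and call in the other settings run for them, left-out arrays aside. Their size was not kept, and with normexp that of miR-183-5p to miR-96-5p shrank to -0.094. The exact test gives its smallest p whenever the groups do not overlap, whatever the size of the difference. Same-numbered arrays of the 2 groups, which share a slide column, deviated with correlations of -0.44, 0.20, -0.26 and -0.23, so these correlations show no pairing. The replicate block is thus also a block on slide column. With it 71 miRNAs were called, and miR-183-5p was not (limma adjusted p = 0.0861). The settings with summed software probe totals and with negative controls subtracted were added after the data were seen. The number of arrays, 4 a group, limits the precision.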
